A study of Homo sapiens with 2 samples.

Results

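The type IV collagen genes COL4A1 to COL4A6, chosen by gene symbol as 6 of 20163 protein-coding genes, lie as 3 head-to-head pairs in the human genome, and their peaks of open chromatin were examined in G401 cells with and without the PRC2 inhibitor MAK683. The peaks counted for them were the peaks within 3 kb of a transcription start site (TSS) of any of the 6 genes or inside their gene bodies, and each shared promoter was counted once per pair. They numbered 13 of 114060 peaks in the DMSO library and 144 of 161184 in the MAK683 library. G401 is a cell line derived from a rhabdoid tumor of the kidney, a malignancy that lacks the SWI/SNF subunit SMARCB1. Cells of the same line received the solvent DMSO or 3 μM MAK683, which binds the EED subunit of PRC2, and both cultures were treated for 3 days. The assay was ATAC-seq, which uses Tn5 transposase to cut and tag DNA that is not packed away. There was 1 library per group, so every difference below is between these libraries, has no replicate check and carries no p-value.

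Type IV collagen is the network-forming collagen of basement membranes, the sheets on which epithelia and endothelia rest. The chains of COL4A1 and COL4A2 assemble together and occur in nearly all basement membranes. The chains of COL4A3, COL4A4 and COL4A5 form the network of the mature glomerular filter of the kidney, and mutations in these genes cause Alport syndrome. COL4A6 joins COL4A5 in Bowman's capsule and around smooth muscle. In each pair the genes are transcribed away from each other, so that a single short stretch of DNA holds the starts of both. PRC2 places the repressive mark H3K27me3, and the comparison asks whether its inhibition changes chromatin opening at these genes.

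COL4A1 (ENSG00000187498) occupies chr13:110801310-110959504 on the minus strand, and COL4A2 (ENSG00000134871) occupies chr13:110958159-111165556 on the plus strand, both in GRCh37. Their TSSs are 127 bp apart. COL4A4 (ENSG00000081052; chr2:227867430-228029169, minus strand) and COL4A3 (ENSG00000169031; chr2:228029340-228179508, plus strand) start 419 bp apart. COL4A6 (ENSG00000197565; chrX:107398837-107682727, minus strand) and COL4A5 (ENSG00000188153; chrX:107683068-107940775, plus strand) start 1416 bp apart, because the main COL4A6 transcript begins inside the longer ones.

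The DNA between the starts of each pair is shown because promoter peaks lie over it or reach into it, and because it differs between the pairs in its content of CpG, the dinucleotide enriched in CpG islands. All runs are the GRCh37 plus strand, outside any annotated exon of the genes, with CpG in capitals. The run of the COL4A1/COL4A2 pair is chr13:110959505-110959604, that of COL4A3/COL4A4 is chr2:228029170-228029339, and that of COL4A5/COL4A6, the 300 bases next to the COL4A5 start, is chrX:107682768-107683067.
COL4A1/COL4A2: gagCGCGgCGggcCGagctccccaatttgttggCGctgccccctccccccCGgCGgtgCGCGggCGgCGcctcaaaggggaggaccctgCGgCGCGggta
COL4A3/COL4A4: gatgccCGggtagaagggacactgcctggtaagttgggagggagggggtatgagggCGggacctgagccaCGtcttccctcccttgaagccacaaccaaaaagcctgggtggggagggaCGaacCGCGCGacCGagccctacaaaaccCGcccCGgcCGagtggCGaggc
COL4A5/COL4A6: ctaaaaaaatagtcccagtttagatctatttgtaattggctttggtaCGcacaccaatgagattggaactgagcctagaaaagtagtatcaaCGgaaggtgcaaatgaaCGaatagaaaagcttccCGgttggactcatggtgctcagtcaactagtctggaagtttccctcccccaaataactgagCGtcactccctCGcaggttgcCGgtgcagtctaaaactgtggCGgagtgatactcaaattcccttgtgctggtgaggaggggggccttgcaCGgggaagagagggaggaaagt
The fourth run, chrX:107681661-107681960, lies upstream of the main COL4A6 start and under the tallest MAK683 peak of that pair.
COL4A6 main start: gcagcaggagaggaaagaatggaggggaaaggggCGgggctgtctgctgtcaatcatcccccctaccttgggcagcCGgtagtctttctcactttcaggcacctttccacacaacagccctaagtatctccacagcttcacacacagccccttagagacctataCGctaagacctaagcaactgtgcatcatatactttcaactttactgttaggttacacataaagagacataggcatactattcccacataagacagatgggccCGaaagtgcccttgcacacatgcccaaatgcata

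The 100 bases between COL4A1 and COL4A2 held 14 CpGs and were 78.0% G or C. The 170 bases between COL4A3 and COL4A4 held 12 CpGs at 65.9% GC. The COL4A5/COL4A6 run held 9 CpGs in 300 bases at 48.3% GC, and the run above the main COL4A6 start held 4 at 49.3%. The pairs thus ran from a GC-rich promoter to CpG-poor ones. The same order was seen in windows from 250 bases before to 50 bases after each TSS, where the median GC content of 20140 protein-coding promoters was 63.7%. In these windows COL4A1 had 76.7% and COL4A2 77.7% GC, COL4A3 had 67.7% and COL4A4 74.0%, and COL4A5 and COL4A6 had 49.3% and 50%. On either strand, the GC box GGGCGG was found in the windows of COL4A1, COL4A2, COL4A3 and COL4A6 and in 61% of all promoters. The letters CCAAT were found at COL4A1, COL4A2 and COL4A5 and in 36% of all promoters. TATAAA was in none of the 6 windows and in 9.79% of all promoters. The windows of COL4A1 and COL4A2 overlap, as do those of COL4A3 and COL4A4, so matches within these pairs need not be separate.

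Peak height is given as tags over the summit per 1000000 tags kept by the peak caller (RPM). The libraries held 16598348 and 18265284 such tags, which makes 1 tag worth 0.0602 RPM in DMSO and 0.0547 RPM in MAK683. The lowest peak listed had 6 tags in each library. Genome-wide, heights were lower after MAK683, with a median log2 ratio of -0.33 over 57983 regions with a peak in both libraries, while peaks were 1.41 times as many. Intervals of heights are 95% exact Clopper-Pearson intervals, and those of log2 ratios are based on Poisson counting error in both tag numbers. They cover counting error only and not the variation between cultures or libraries, since each group had 1 library.

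All 3 promoters had a peak in the MAK683 library, and those of COL4A1/COL4A2 and COL4A3/COL4A4 also had one in DMSO. Over all 20163 protein-coding genes, 72.7% had a promoter peak in DMSO, 78.7% had one in MAK683, and 7.87% had one in MAK683 only, as the COL4A5/COL4A6 promoter did. A peak in DMSO only, seen at none of the pairs, was listed for 1.84%. Every pair was higher in MAK683, the last one against a floor, whereas 21.5% of 16247 protein-coding promoters with a peak were. A height at least 1.5 times that of DMSO was seen at COL4A1/COL4A2 and, against the floor described below, at COL4A5/COL4A6. The share of all promoters past this mark was 9.64%. Among 3206 promoters whose DMSO peak had 9 to 20 tags, a range chosen after the values were seen, it was 11.8%. With 3 pairs, and with members proposed when results of these data were known, these counts describe the promoters and are not a test.

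The COL4A1/COL4A2 promoter had the tallest peak of the family in MAK683 and the lower of the promoter peaks in DMSO. In DMSO its tallest peak lay at chr13:110959539-110960319, with 11 tags and 0.663 RPM (0.331 to 1.19), and a separate peak of 10 tags followed at chr13:110961200-110961497. In MAK683 a single peak of 3599 bp, at chr13:110958666-110962264, covered both of them and both TSSs. It had 31 tags and 1.70 RPM (1.15 to 2.41), with its summit 49 bp downstream of the COL4A2 start, in an exon. The DMSO summit was 618 bp downstream of that start, also in an exon. The log2 ratio was 1.36, with an interval of 0.36 to 2.35 that excludes 0. This ratio was above that of 98.5% of protein-coding promoters with a peak. Within 3 kb of the COL4A1 start the MAK683 library had further peaks of 16, 9 and 7 tags in the first part of the gene, and DMSO had none there.

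The COL4A3/COL4A4 promoter was the tallest of the family in DMSO. It had 17 tags and 1.02 RPM (0.597 to 1.64) at chr2:228028516-228029796, with its summit 35 bp upstream of the main COL4A4 start. In MAK683 it had 25 tags and 1.37 RPM (0.886 to 2.02) at chr2:228027799-228030079, with its summit 63 bp downstream of the COL4A3 start, in an exon. The log2 ratio of 0.42 had an interval of -0.47 to 1.31, so the difference was not larger than counting error. A second MAK683 peak within the window, at chr2:228026475-228026925, had 8 tags.

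At COL4A5/COL4A6 the DMSO library listed no peak in the promoter or anywhere in the 542 kb of both gene bodies. The MAK683 library had 2 promoter peaks with a stretch free of peaks between them. The taller, at chrX:107680974-107681998, had 19 tags and 1.04 RPM (0.626 to 1.62), and its summit was 208 bp downstream of the main COL4A6 start, in an exon. The other, at chrX:107682943-107683483, had 12 tags and 0.657 RPM, with its summit 1 bp from the COL4A5 start. Of the family's peaks found in a single library, the one over COL4A6 alone reached 1 RPM. With DMSO set to 0.361 RPM, a floor equal to its own lowest listed peak, the log2 ratio was 1.52. It depends on that floor, and a signal too low or too short to be called would not be listed.

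**Figure D1:**
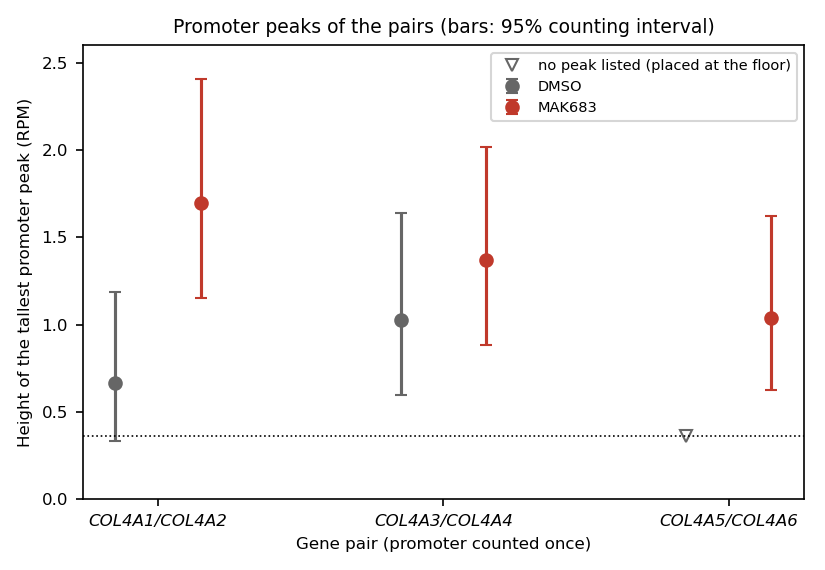
Height in RPM (summit tags scaled to 1000000 tags kept) of the tallest promoter peak of each head-to-head pair in the DMSO and MAK683 libraries, with 95% counting intervals; the open triangle marks a pair with no DMSO peak, placed at the floor (dotted line). MAK683 is above DMSO in each pair, the intervals of COL4A3/COL4A4 overlap widely, and COL4A5/COL4A6 has a peak only in MAK683.

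Most head-to-head promoters did not behave this way. Of 931 protein-coding pairs with diverging TSSs at most 1 kb apart and a promoter peak, 3.33% were higher in MAK683 and 0.537%, or 5 pairs, were at least 1.5 times higher. COL4A1/COL4A2 was among the latter and COL4A3/COL4A4 among the former, while COL4A5/COL4A6 starts too far apart to enter this set. The collagen promoters were also low for such pairs, so these shares come from mostly taller promoters. A share over head-to-head pairs matched in height was not computed. The median DMSO height of head-to-head promoters was 2.41 RPM and that of all protein-coding promoters 1.93 RPM, against 0.663 and 1.02 RPM here.

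Peak numbers over the whole loci, promoter peaks included, were compared next. In the COL4A1/COL4A2 locus 7 peaks were called in DMSO and 113 in MAK683, a ratio of 16.1. The ratio over chromosome 13 was 2.04. In COL4A3/COL4A4 there were 6 and 26 peaks, a ratio of 4.33, against 1.66 over chromosome 2. In COL4A5/COL4A6 there were 0 and 5, with a ratio of 1.13 over chromosome X. The peaks found in MAK683 alone had medians of 10, 9 and 10 tags in the 3 loci, close to the median of 10 tags over all peaks of that library.

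**Figure D2:**
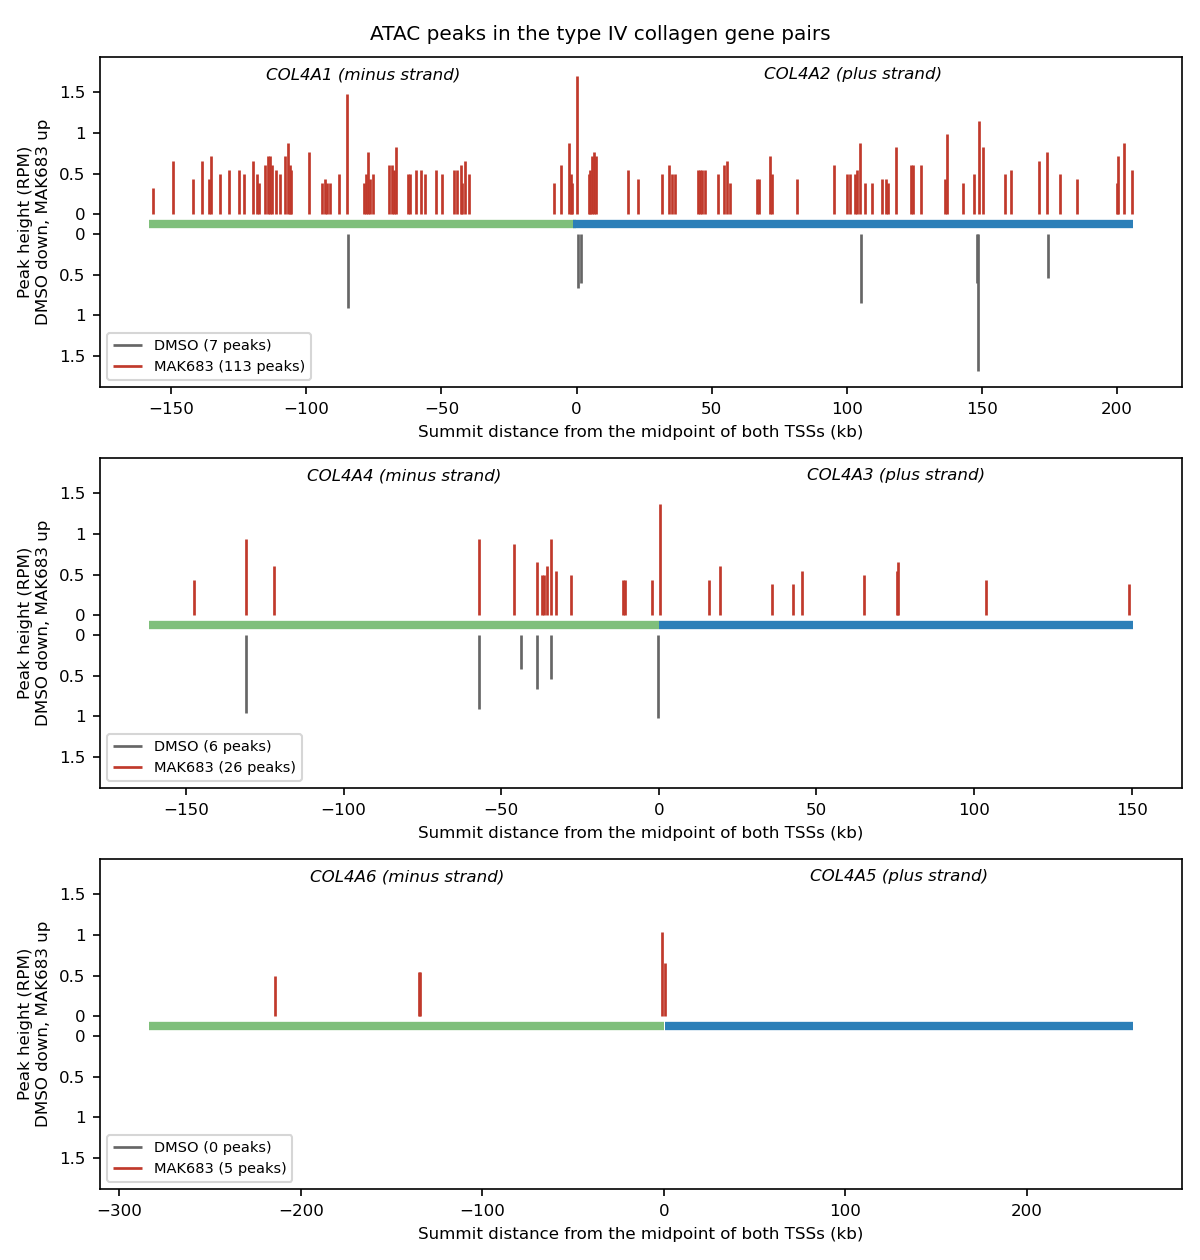
Peaks of the MAK683 library (red, upward) and the DMSO library (grey, downward) in the 3 gene pairs, with summit distance from the midpoint of both TSSs in kb on the horizontal axis and height in RPM on the vertical axis; green and blue bars are the genes on the minus and plus strands. COL4A1/COL4A2 carries 113 MAK683 peaks along both genes against 7 DMSO peaks, and COL4A5/COL4A6 carries 5 against none.

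In the COL4A1/COL4A2 locus the MAK683 peaks covered 60.8 kb, or 16.7% of the 364 kb, and the DMSO peaks 3.56 kb, or 0.978%. MAK683 summits followed each other at a median distance of 1.85 kb. Their median height was 10 tags (0.547 RPM), the same as over the whole MAK683 library. Of the 113 peaks, 71 had 6 to 10 tags, 34 had 11 to 15 and 8 had 16 or more. Their summits lay in introns in 108 cases and in exons in 5. The caller was run with a single background level for each library, and whether a broad rise in coverage underlies these peaks was not tested.

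The peaks were not spread evenly over COL4A1. Its first intron is 64.2 kb long and held 18 MAK683 summits, against 39 in the 93.8 kb of the gene beyond it. The longest stretch of the locus free of MAK683 peaks, 31.2 kb, lay in that intron between 8.34 and 39.5 kb from the start. In COL4A2 the longest such stretches were 14.6 and 13.1 kb. At the edge of the locus the list did not stop: the last MAK683 peak inside COL4A2 had 10 tags, and the next one, 0.821 kb beyond the end of the gene, had 11.

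A few regions of the locus were open in both libraries. All 7 DMSO peaks of COL4A1/COL4A2 overlapped a MAK683 peak, and they fell into 5 MAK683 peaks. One lies in an intron of COL4A1 at chr13:110874292-110874913, with 15 tags in DMSO and 27 in MAK683 (log2 ratio 0.71, interval -0.20 to 1.62). Another, at chr13:111064003-111065716 in an intron of COL4A2, had 14 and 16 tags. The tallest DMSO peak of the locus lay in another COL4A2 intron under chr13:111107246-111108743 and was lower in MAK683, with 28 tags in DMSO and 21 in MAK683 (log2 ratio -0.55, interval -1.37 to 0.26). The last, at chr13:111132384-111134889, had 9 and 14. Of these 5 regions, 4 were higher in MAK683, against 23.8% of all shared regions, and of the 5 the promoter alone had an interval that excludes 0. The tallest peak of the locus without a DMSO counterpart had 18 tags (0.985 RPM), at chr13:111096515-111096954 in an intron of COL4A2.

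In COL4A3/COL4A4 the DMSO peaks lay in COL4A4 or at the promoter. The COL4A4 body held 6 DMSO and 16 MAK683 peaks, and that of COL4A3 held 1 and 11, with the promoter peak counted in both. Besides the promoter, 4 regions were open in both libraries, all in introns of COL4A4. At chr2:227898085-227898827 they had 16 tags in DMSO and 17 in MAK683, at chr2:227971459-227972637 they had 15 and 17, and at chr2:227990307-227990560 they had 11 and 12. The heights at these sites differed by at most 0.05 on the log2 scale. The fourth, at chr2:227994645-227995643, had 9 and 17 tags (log2 ratio 0.78, interval -0.39 to 1.95). A DMSO peak of 7 tags at chr2:227985236-227985439 was the single peak of the family absent from MAK683. The 21 MAK683 peaks without a DMSO counterpart had a median of 9 tags and at most 16.

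The gene bodies of the last pair held few peaks, 0.923 per 100 kb in MAK683 with the promoter peaks included and 0 in DMSO. Among 152 other protein-coding bodies of at least 100 kb on chromosome X, the medians were 0.885 in MAK683 and 0.533 in DMSO. Over all 3666 bodies of this length they were 3.94 and 2.18. Apart from the promoter peaks, MAK683 had 3 peaks, of 9, 10 and 10 tags, all in introns of COL4A6. COL4A5 held none beyond its promoter peak along 258 kb, and a peak of 9 tags lay 1.95 kb past its end.

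Across the family, 92.3% of DMSO peaks overlapped a MAK683 peak (95% Wilson interval 66.7 to 98.6%) and 6.94% of MAK683 peaks overlapped a DMSO peak (3.82 to 12.3%). Over all peaks the shares were 56.2% and 43.2%. Of the 144 MAK683 peaks 113 lay in COL4A1/COL4A2, so the family share is mostly that of a single locus. By pair the MAK683 shares were 4.42% at COL4A1/COL4A2, 19.2% at COL4A3/COL4A4 and 0% at COL4A5/COL4A6. The intervals treat neighboring peaks as independent. These shares count an overlap of 1 bp, and MAK683 peaks can be long. With a reciprocal overlap of 50%, or with summits up to 150 bp apart, the family's shares were 38.5% of DMSO and 3.47% of MAK683 peaks. The shares over all peaks were not computed under these rules, so the 56.2% and 43.2% are no background for them.

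Many long genes showed the same kind of gain. All 6 bodies had more peaks in MAK683 than in DMSO, as did 49.3% of 3666 protein-coding gene bodies of at least 100 kb. A rule set after the values were seen, with 10 or more MAK683 peaks and 3 or more times as many as in DMSO, was met by 23.4% of these bodies, and by COL4A1, COL4A2 and COL4A3 of the 6 members. By density the first pair stood near the top. COL4A1 gained 36.0 peaks per 100 kb, from 1 to 58 peaks, which placed it 9th of 3666, and COL4A2 gained 24.1 per 100 kb, from 6 to 56, which placed it 40th. The 95th percentile over all long bodies was 13.3 per 100 kb and the median 0. On chromosome 13 the largest gain among the 96 other long bodies was 22.0 per 100 kb. COL4A3 gained 6.66 and COL4A4 6.18 per 100 kb, at places 573 and 606. COL4A6 gained 1.41 and COL4A5 0.39 per 100 kb, on a chromosome where the 95th percentile of other long bodies was 2.39. By gained peaks per 100 kb the pairs thus came in the order COL4A1/COL4A2, COL4A3/COL4A4 and COL4A5/COL4A6. In this order the log2 ratios of promoter height were 1.36 (interval 0.36 to 2.35), 0.42 (-0.47 to 1.31) and, against the floor, 1.52. The pairs cannot be ranked by these ratios, given the counting error and the floor.

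**Figure D3:**
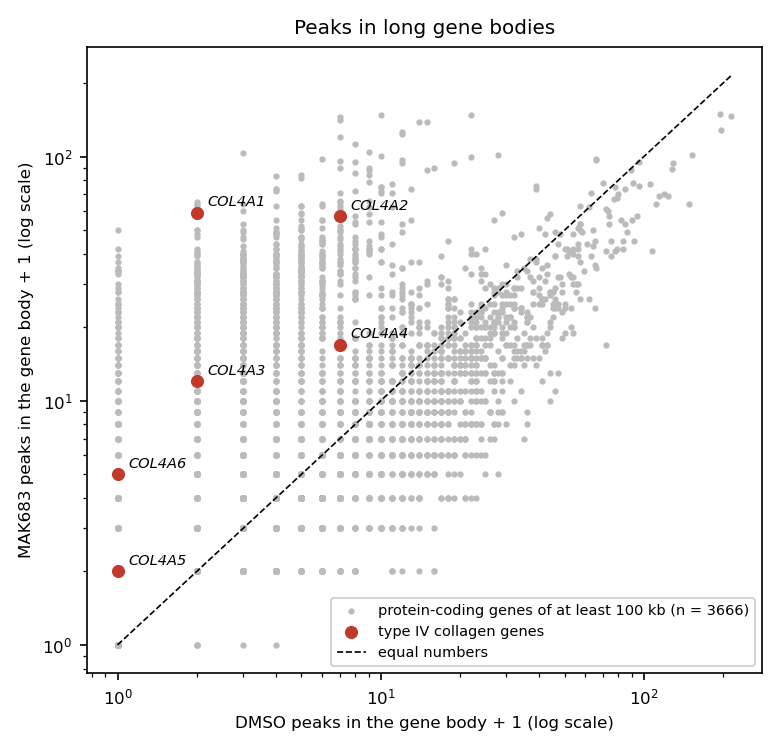
Number of DMSO peaks (horizontal) and MAK683 peaks (vertical) in each protein-coding gene body of at least 100 kb, both plus 1 and on log scales, with the 6 type IV collagen genes in red and a dashed line of equal numbers. All 6 lie above the line, COL4A1 and COL4A2 the farthest, among many other long genes with few DMSO peaks and many MAK683 peaks.

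At COL4A1/COL4A2 the larger number of peaks in MAK683 extended past COL4A1 into the flank and ended soon after COL4A2. In bins of 50 kb, the 18 bins centred from -600 to 250 kb of the shared promoter held 15 DMSO and 184 MAK683 peaks, and MAK683 had more in 18 of 18. The 8 bins centred from -150 to 200 kb each held 11 to 26 MAK683 peaks and at most 3 DMSO peaks. Farther out, in bins centred from 300 to 1000 kb on the COL4A2 side, the libraries had 117 and 100 peaks, with more in DMSO in 7 of 15 bins and more in MAK683 in 4. Below -600 kb there were 1 and 2. These spans were chosen after the counts were seen. The neighbor RAB20, 9.86 kb beyond COL4A2, had 1 and 9 peaks, and NAXD, 102 kb beyond, had 5 and 3. On the other side IRS2, 362 kb away, had 2 and 8.

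Around COL4A3/COL4A4 the flanks differed by side. The flanks of 1 Mb had 44 DMSO and 42 MAK683 peaks on the COL4A4 side and 24 and 74 on the COL4A3 side. The adjoining genes RHBDD1 and MFF had 6 and 5 peaks and 4 and 1 peaks. Around COL4A5/COL4A6 the flanks had 9 and 32 peaks, 27 of the latter on the COL4A6 side.

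**Figure D4:**
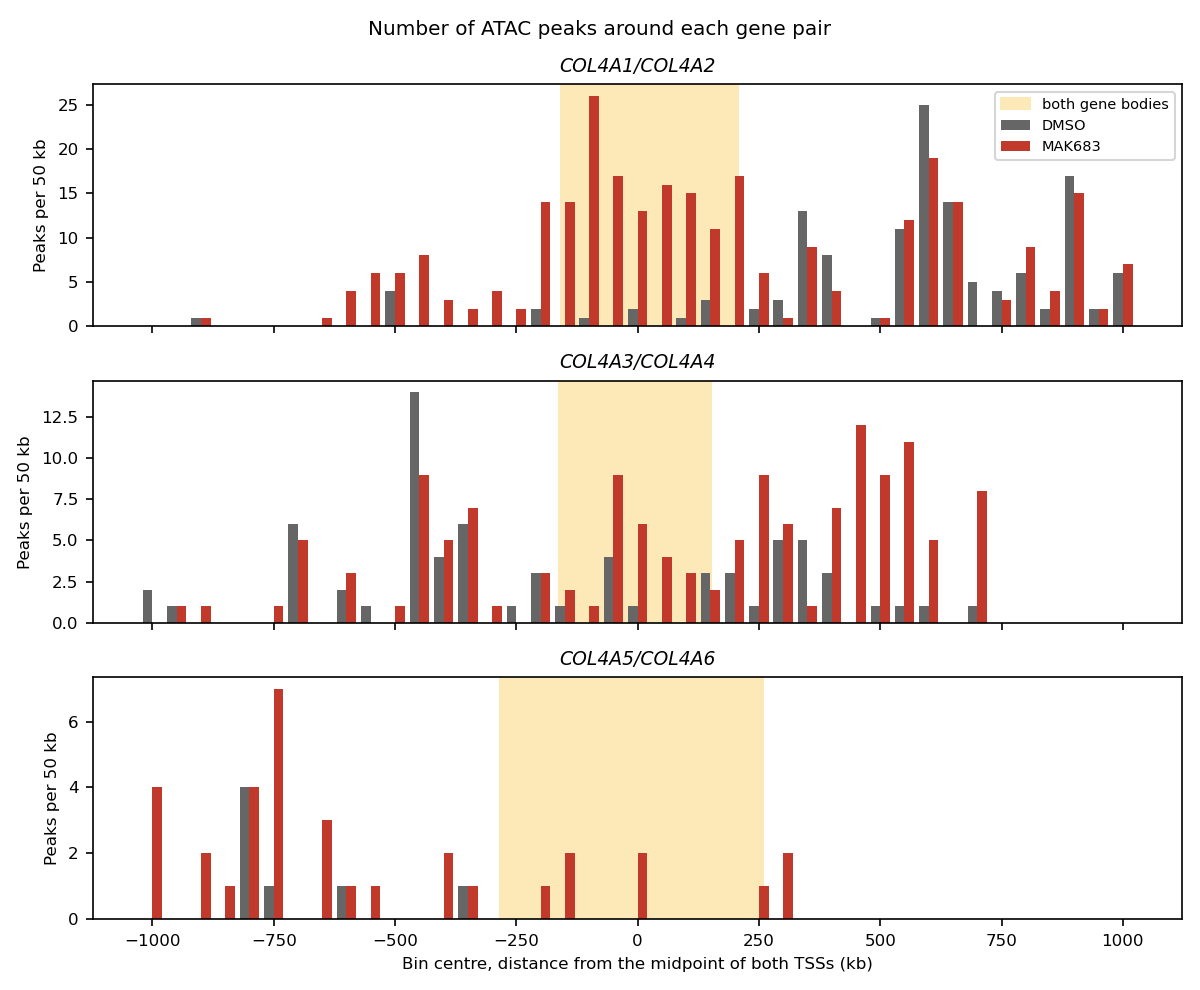
Peaks per 50 kb bin in the DMSO and MAK683 libraries within 1000 kb of the midpoint of each pair, with both gene bodies shaded. At COL4A1/COL4A2 MAK683 exceeds DMSO in every bin from -600 to 250 kb, and from 300 kb on there are 117 DMSO and 100 MAK683 peaks.

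Type IV collagen is made, crosslinked, bound and cut by other proteins, and the promoters of 41 such partner genes were read in the same way. Of these, 35 had a promoter peak in DMSO and 39 in MAK683, against 72.7% and 78.7% of all protein-coding genes. The median log2 ratio of the 39 was -0.38, against -0.42 for all protein-coding promoters, with 10 higher and 29 lower in MAK683. At least 1.5 times higher were 4, of which LAMA2 and MMP2 are read against the floor, against 9.64% of all promoters, and at least 1.5 times lower were 12, against 32.8%. As a list, the partners thus lay close to the background in height ratio, while a promoter peak was more frequent than over all genes.

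The enzymes and chaperones that hydroxylate, glycosylate and fold procollagen numbered 15. Of these 14 were lower in MAK683, counting P4HB, which was nearly level at a log2 ratio of -0.000561. The median log2 ratio of the 15 was -0.47. Of all protein-coding promoters with a peak 12737 of 16247 were lower and the median was -0.42, so the group lay near the background. Intervals of the ratios below are read against 0, and those of the genes named as lower all include the median of all promoters. PLOD1, a lysyl hydroxylase, had 38 tags in DMSO and 25 in MAK683 (log2 ratio -0.74, interval -1.47 to -0.01). P4HA2, a prolyl hydroxylase subunit, had 40 and 27 (-0.71, -1.41 to -0.000821). PLOD2, another lysyl hydroxylase, was the one gene above 0, at 0.45 with an interval that includes 0. The 4 genes of secretion and crosslinking, among them the peroxidasin gene PXDN and the lysyl oxidase-like gene LOXL2, ran from -0.46 to -0.38.

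Laminins and nidogens, which bind the collagen network into the membrane, belong to a group of basement membrane partners. Of 13 with a peak, 5 were higher, 2 of them against the floor, and 8 lower, with a median of -0.24. Over all protein-coding promoters with a peak 21.5% were higher and the median was -0.42. LAMC1, which encodes the gamma chain of most laminins, had 53 and 32 tags (log2 ratio -0.87, interval -1.50 to -0.23). LAMB2, a laminin chain of the glomerular membrane, had 39 and 21 (-1.03, -1.80 to -0.27). NID1, which links laminin to type IV collagen, had 56 and 40 (-0.62, -1.21 to -0.04). LAMA2, the laminin chain of muscle membranes, had no DMSO promoter peak and 18 tags in MAK683. LAMA4, a chain of vessel walls, had 9 and 21 (1.08, -0.04 to 2.21).

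Among receptors, ITGA2, the collagen-binding integrin chain, had 9 and 32 tags (log2 ratio 1.69, interval 0.63 to 2.76), and ITGA1, a chain that prefers type IV collagen, had 26 and 41 (0.52, -0.19 to 1.23). The shared integrin chain ITGB1 had 39 and 39, and the collagen receptor kinases DDR1 and DDR2 were at -0.72 and -0.45. Of the gelatinases, which cut type IV collagen, neither had a DMSO promoter peak, and MMP2 had 12 tags and MMP9 had 8 in MAK683.

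**Figure D5:**
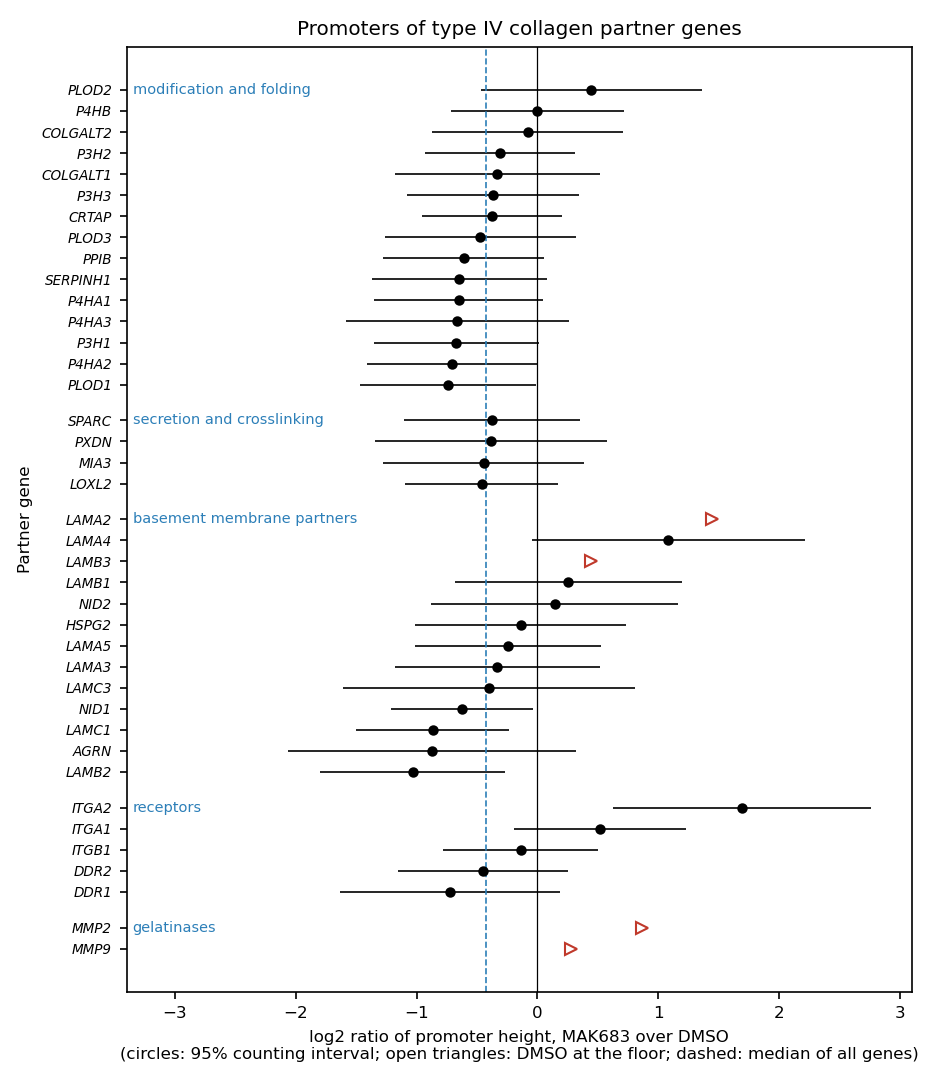
Log2 ratio of promoter height, MAK683 over DMSO, for 39 partner genes grouped by role, with 95% counting intervals; open triangles have no DMSO peak and are placed against the floor, and the dashed line is the median of all protein-coding promoters. The modifying enzymes lie left of 0 except PLOD2, with P4HB almost on 0. ITGA2 is the only circle whose interval lies wholly above 0.

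Partner gene bodies were divided too. More MAK683 than DMSO peaks were listed in 19 of 41 and fewer in 19. The share with more was 49.3% over all protein-coding bodies of at least 100 kb. It was not computed over bodies of every length, so these counts have no matched background. Of the 17 bodies of at least 100 kb, 8 met the same rule on gene bodies, against 23.4% of all such bodies. The counts were 6 and 48 in LAMA2, 2 and 24 in LAMA4, 1 and 28 in MMP2, 4 and 21 in ITGA1, 2 and 14 in ITGA2, 11 and 34 in PXDN, 2 and 14 in PLOD2 and 1 and 15 in COLGALT2. DDR2, with 21 and 7, P3H2, with 54 and 27, and LAMC1, with 9 and 3, had fewer in MAK683.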

How the data were processed

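ATAC-seq libraries of G401 cells, 1 with DMSO and 1 with MAK683, were analysed from the authors' peak lists. Per the labels, sequencing was paired-end with reads of 150 bp. The methods give trimming with Trim-galore and alignment by Bowtie2 to hg19. The authors then ran MACS on 1 library at a time, per the file headers version 2.1.1.20160309, without a control or local background, in single-end mode, with a shift of -100 bp, an extension to 200 bp, 1 tag per position and a q-value cutoff of 0.05. The deposited pileup is a signal in whole tags without depth scaling. Fold enrichment, also deposited, is a ratio to the genome-wide background. The deposited −log10 p-value and q-value depend on depth and served only as filters.

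Peaks of the autosomes, X and Y were joined to GENCODE 44 lifted to GRCh37, the coordinates of hg19, with the TSS of the Ensembl canonical transcript of each gene. An overlap of 1 bp or more counted as shared. Promoter height was that of the tallest peak lying within 3 kb. Sequences were read from the GRCh37 genome. The members, partner genes and thresholds were chosen with earlier results of these data known. All 6 members were named, with every promoter peak, the 3 tallest other peaks of each pair and library, and any peak of at least 1 RPM found in 1 library alone. Partner genes were named in full where the ratio was at least 1.5 either way with an interval excluding 0, or where 1 library alone had at least 10 tags, and others named were chosen after their values were seen. Alternatives were peak filters, equal peak numbers, overlap rules, TSS windows and sets, and height scales. With 1 library per group no test was run. Overlap and interval code was tested on simulated data. Python 3.11.15, numpy 2.4.6, pandas 2.3.3, scipy 1.17.1 and matplotlib 3.10.9 were used.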

Additional observations from a re-analysis of the deposited data

How the results depend on the processing

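The log2 ratio of promoter height was above 0 for each pair under every alternative run. It ran from 1.34 to 1.69 at COL4A1/COL4A2, 0.40 to 0.75 at COL4A3/COL4A4 and 1.44 to 1.86 at COL4A5/COL4A6. At COL4A5/COL4A6 DMSO stood at the floor in every value given, so a ratio above 0 was fixed in advance. Centring on shared regions could only raise the ratios, since the median of those regions was below 0. A narrower TSS window and a wider TSS set returned the main values. The numbers of peaks depended on the filter. At a −log10 q cutoff of 5 the MAK683 numbers in the pairs, in this order, were 42, 10 and 2, against 6, 4 and 0 in DMSO, and the shared percentages were 100% of DMSO peaks and 14.8% of MAK683 peaks. At a cutoff of 10 they were 8, 5 and 1 against 2, 3 and 0, the shares were 100% and 35.7%, and 1 promoter had a DMSO peak, that of COL4A3/COL4A4. With a height of at least 0.5 RPM they were 61, 13 and 4 against 7, 5 and 0, with shares of 100% and 12.8%. With equal numbers of peaks in both libraries they were 86, 17 and 4 against 7, 6 and 0. MAK683 had more peaks in each pair throughout. The cutoffs were not applied to the numbers and shares over all peaks, so the filtered values have no matched background. At the cutoff of 10 the MAK683 share rests on 14 peaks. A reciprocal overlap of 50%, or a summit distance of up to 150 bp, gave shares of 38.5% and 3.47% under each. The shares over all peaks were not computed under these rules either. Across the alternatives there were 69 values, of which 22 moved and 47 did not. Moved means beyond the counting interval, or for counts by over 1.5 times. For the partner median it means beyond an interval of the median over the genes. Only log2 ratios could change sign, since counts and shares cannot. Of those ratios 0 did, and the ones at COL4A5/COL4A6 were held above 0 by the floor. Filters leave fewer peaks by construction, and beyond that the cause was not tested. Leaving out a library was not possible with 1 per group. No paired analysis was possible because each group had 1 library. At 6 to 10 tags a peak lies near the lowest height listed, so depth limits statements about single low peaks.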
